A study of Mus musculus with 2 samples.

Results

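The 8 genes described here were *Il33*, *Serpina3n*, *Klk6*, *B2m*, *H2-D1*, *H2-K1*, *Socs3* and *Stat3*, taken by symbol from the 32285 genes of the deposited tables. They are genes of reactive oligodendrocytes, of antigen presentation by major histocompatibility complex (MHC) class I and of the signalling route through STAT3. Single nuclei were sequenced from the ipsilateral hemisphere of male mice, from the medial prefrontal cortex (bregma 2.34 mm) to the central lateral thalamus (bregma -2.18 mm). The Normal group was 1 library from the pooled tissue of 3 mice without haemorrhage, and the SAH group was 1 library from the pooled tissue of 3 mice killed 12 h after subarachnoid haemorrhage (SAH) by endovascular puncture. The labels give an age of 6 to 8 weeks for both groups and no transgene. They call the control mice normal, whereas the study's methods and text describe sham-operated controls, and the methods give a somewhat later age range, so that whether SAH is compared here with operated or untouched mice is not settled.

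Interleukin 33 is an alarmin, a cytokine that is stored in the nucleus, in the brain mainly of oligodendrocytes and astrocytes, and that acts through the receptor ST2 once it is released from damaged cells. *Serpina3n* encodes a secreted inhibitor of serine proteases that is known as a marker of reactive glia, and *Klk6* encodes kallikrein 6, a secreted serine protease of myelinating cells. *H2-D1* and *H2-K1* encode classical MHC class I heavy chains and *B2m* their light chain, and together these present peptides from inside the cell to CD8+ T cells. Cytokines of the interleukin 6 family activate the transcription factor STAT3, which induces *Socs3*, and the SOCS3 protein then inhibits the Janus kinases upstream of STAT3.

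All 8 genes had an entry among the RefSeq promoters of build GRCm38.p6, with 11 start sites in all. Of these, 4 windows of 250 bases upstream of the start site are printed 5′ to 3′, because each holds 1 of the motifs searched, which stands in capitals. The *Socs3* window lies at chr11:117969367-117969616 on the minus strand and holds TTCNNNGAA, a site for STAT factors. The *B2m* window lies at chr2:122147437-122147686 on the plus strand and holds an interferon-stimulated response element, in capitals. The windows of *H2-D1* at chr17:35262844-35263093 on the plus strand and of the first start site of *H2-K1* at chr17:34000348-34000597 on the minus strand hold the NF-kB site of the class I enhancer, in capitals. Upstream here refers to the RefSeq start sites. The windows of *Socs3* and *H2-D1* lie inside the gene spans given below, which are those of GENCODE and begin further upstream.
Socs3: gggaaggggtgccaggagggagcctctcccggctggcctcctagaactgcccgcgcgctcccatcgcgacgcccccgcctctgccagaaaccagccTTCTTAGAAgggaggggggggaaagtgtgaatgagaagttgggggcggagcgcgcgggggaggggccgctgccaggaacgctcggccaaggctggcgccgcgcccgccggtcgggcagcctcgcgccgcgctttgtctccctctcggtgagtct
B2m: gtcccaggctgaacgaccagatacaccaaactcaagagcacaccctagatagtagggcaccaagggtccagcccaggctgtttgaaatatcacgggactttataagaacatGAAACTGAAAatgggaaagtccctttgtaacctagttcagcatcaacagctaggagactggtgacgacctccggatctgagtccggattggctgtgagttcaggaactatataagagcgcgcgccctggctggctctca
H2-D1: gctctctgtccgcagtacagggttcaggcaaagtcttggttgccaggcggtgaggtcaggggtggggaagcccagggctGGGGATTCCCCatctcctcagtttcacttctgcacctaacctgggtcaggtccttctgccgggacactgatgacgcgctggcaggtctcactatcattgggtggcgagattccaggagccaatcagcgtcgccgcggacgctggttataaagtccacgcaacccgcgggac
H2-K1: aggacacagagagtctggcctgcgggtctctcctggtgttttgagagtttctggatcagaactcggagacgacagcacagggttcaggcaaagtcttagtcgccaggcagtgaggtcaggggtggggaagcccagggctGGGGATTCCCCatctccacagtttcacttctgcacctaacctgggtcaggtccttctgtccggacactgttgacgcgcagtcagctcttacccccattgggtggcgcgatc
Both strands were searched, and the motifs did not overlap each other in these windows. The STAT site was present in 7.02% of 32851 promoter windows of this length, the interferon element in 2.98% and the class I site in 0.0457%, that is in 15 windows. The STAT site of *Socs3* began 154 bases upstream of the start, the interferon element of *B2m* 139 bases, and the class I site 171 bases upstream in *H2-D1* and 111 bases in *H2-K1*. *H2-D1* and *H2-K1* shared a run of 47 identical bases in these windows, the longest among the pairs of the 8 genes. None of the 3 motifs was found in the windows of *Il33*, *Serpina3n*, *Klk6* or *Stat3*, which says only that these letters are not there. The same holds for the interferon element in the *H2-D1* and *H2-K1* windows. For each motif 1 fixed pattern of letters was searched, so that sites of a looser form were not marked.

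The Normal library held 12204 nuclei with 114970719 unique molecular identifiers (UMIs) and a median of 7252.5 per nucleus, and the SAH library 18209 nuclei with 172604358 UMIs and a median of 8151. Nuclei were assigned to 8 cell classes by sums of marker genes, and 10762 Normal and 16071 SAH nuclei received a class. Oligodendrocytes numbered 1752 and 3606, with medians of 1899.5 and 2197 UMIs, and all 12 of their markers were detected in both libraries. Their summed markers were lower in SAH, at 313 per 10000 UMIs in Normal and 182 in SAH, with *Mag*, a myelin-associated glycoprotein, at a log2 ratio of -1.09, *Mbp* at -0.04 and *Mobp* at 0.39. In the same nuclei, all 10 microglia markers summed to 1.73 per 10000 UMIs in Normal and 2.03 in SAH, the 10 astrocyte markers to 2.43 and 2.28, and the 5 pan-neuronal markers to 6.14 and 6.08. The libraries shared 78 cell barcodes, 12 of them on Normal and 19 on SAH oligodendrocytes.

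Levels are given as UMIs of a gene in counts per 1000000 UMIs of the class (CPM), and differences as the log2 ratio of SAH over Normal. Values in brackets are 95% intervals, Poisson for CPM and binomial for ratios and shares of nuclei, and cover counting error only, since UMIs of 1 library say nothing of the spread between mice. Intervals of levels and ratios also take each UMI as independent, so they are too narrow where few nuclei hold many UMIs of a gene. With 1 library per condition no difference could be set against replicate error, and none was tested. Where genes are counted, a gene is called higher or lower if its level differed by 2-fold or more and it had at least 50 UMIs over both libraries. For a single gene, higher and lower give the direction of its ratio, which can be under 2-fold or rest on fewer UMIs.

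In oligodendrocytes, *Serpina3n*, *Stat3* and *Socs3* stood higher in SAH, *Il33* and *Klk6* stood slightly lower, and the MHC class I genes were lower or did not differ beyond counting error. Of the 8 genes, 7 had at least 50 UMIs in this class, and 2 of them, *Serpina3n* and *Stat3*, were 2-fold or more higher in SAH, where 8.07% of 11555 genes were. None of the 7 was 2-fold or more lower, where 6.1% of all genes were. The median log2 ratio of the 7 genes was -0.17, beside -0.05 over all genes. *Socs3*, with 48 UMIs in all, did not reach the minimum. The call of *Stat3* rested on a ratio close to 2-fold and ended under 4 of 13 other settings, with log2 ratios of 0.96 as a mean over nuclei, 0.88 after thinning, 0.98 against genes of like length and 0.84 without the nuclei that held 4 or more *Il33* UMIs. The plot of levels by cell class shows that these genes did not share 1 pattern across cell types.

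**Figure D1:**
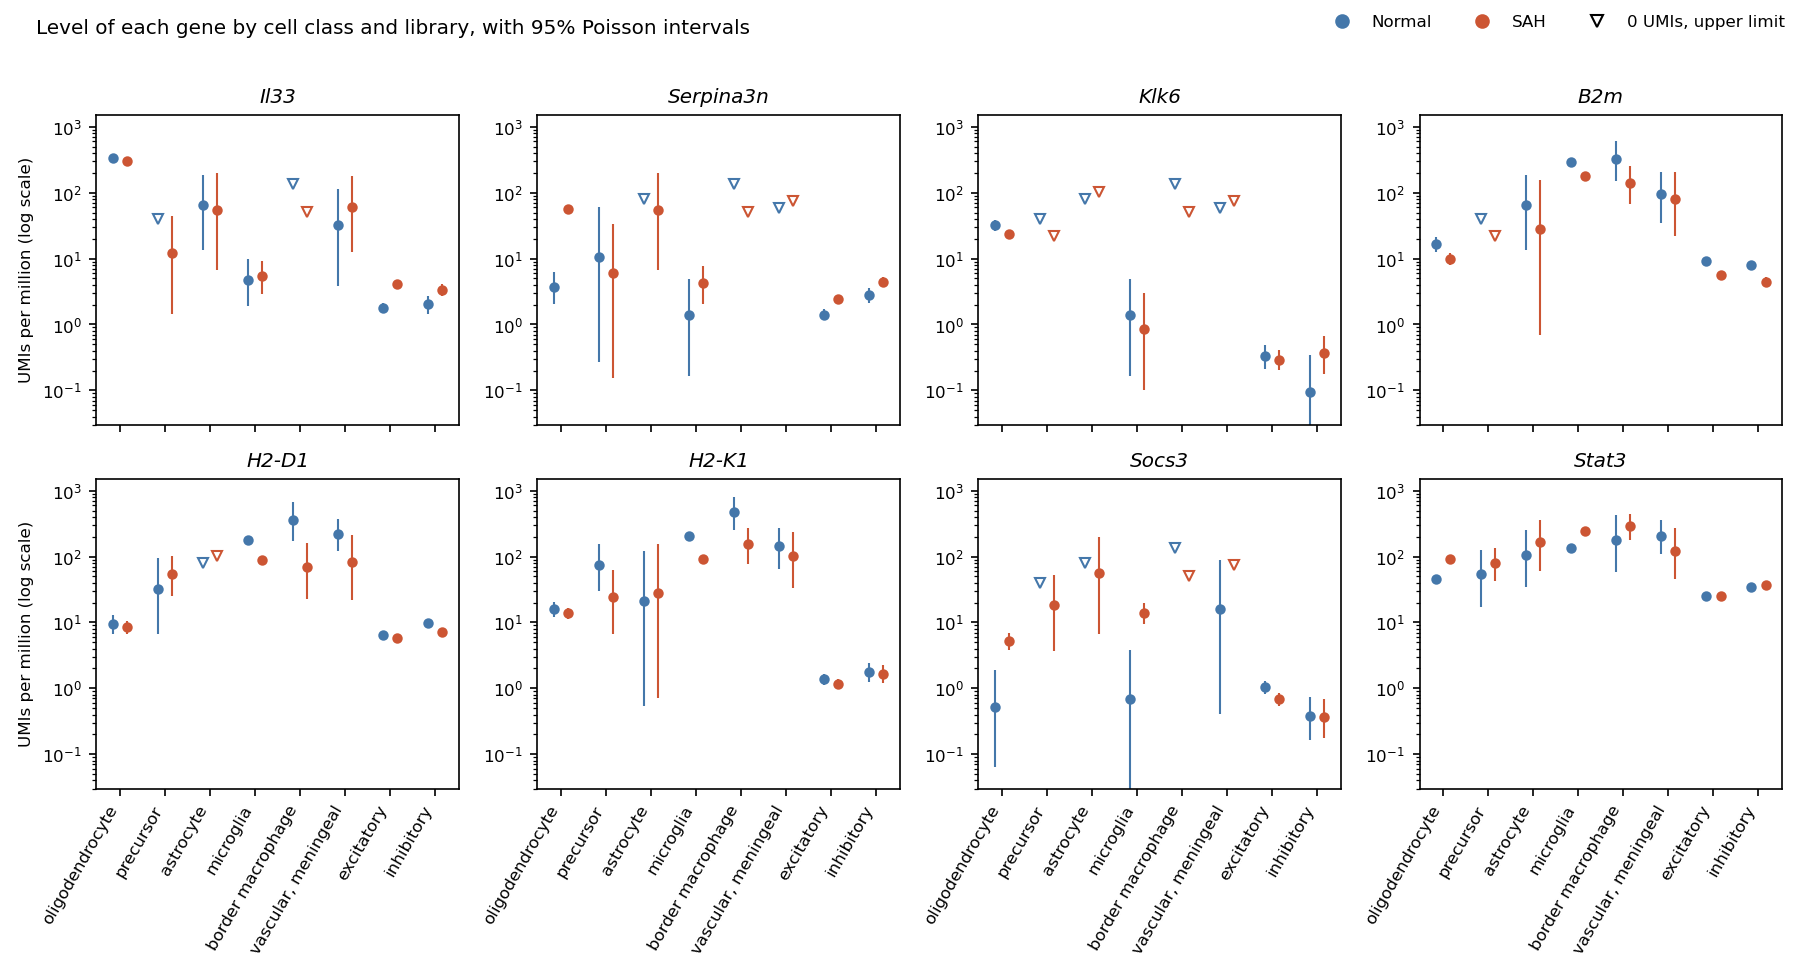
Level in CPM (log scale) of each of the 8 genes in 8 cell classes, with 1 point for the Normal and 1 for the SAH library, bars for 95% Poisson intervals (cut off at the lower edge of the axis) and open triangles for the upper limit where a class held no UMI. *Il33* and *Klk6* stand high in oligodendrocytes in both libraries, *Serpina3n* only in oligodendrocytes of SAH among the 4 large classes, and the MHC class I genes in microglia, border macrophages and vascular and leptomeningeal nuclei.

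*Il33* (ENSMUSG00000024810, GRCm38 chromosome 19, 29925114 to 29960718, plus strand) had most of its UMIs in oligodendrocytes, 80.1% of them in Normal and 73.8% in SAH. Its level there was 332 CPM [314, 351] for Normal (1264 UMIs) and 298 CPM [287, 309] for SAH (2623 UMIs). As a log2 ratio this was -0.16 [-0.25, -0.06], a small difference. In SAH, 169 nuclei held 53.6% of the *Il33* UMIs of oligodendrocytes, so these intervals are too narrow. With nuclei that pass another gate kept, the log2 ratio was -0.03. Over the cell classes, *Il33* was near 5 CPM in microglia, at 4.80 in Normal and 5.46 in SAH. These values rested on 7 and 13 UMIs. *Il33* was at 1.45% of its oligodendrocyte level in Normal microglia and 1.83% in SAH microglia. The 12 oligodendrocyte markers there had medians of 1.69% (0.412 to 2.96) and 1.92% (0.641 to 3.56), and their part in these values was not tested. *Il33* was not detected in border macrophages, and astrocytes, with 19 Normal and 13 SAH nuclei, held 3 and 2 of its UMIs.

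The share of nuclei with *Il33* was lower in SAH, while the share with several of its UMIs was higher. At an equal depth of 1000 UMIs per nucleus, 27.1% [24.9, 29.4] of 1601 Normal and 16.9% [15.7, 18.2] of 3422 SAH oligodendrocytes held an *Il33* UMI, after 151 and 184 shallower nuclei had been left out. The shares without thinning were 40.1% and 27.2%. Excitatory neurons, which should lack this gene, held one in 0.205% and 0.289% of nuclei at the same depth, and in 1.76% and 2.47% of nuclei at their own median depths of 10934 and 12445 UMIs. More of the *Il33* of SAH lay in nuclei that held several of its UMIs. At equal depth, 7 Normal nuclei, 0.437% [0.176, 0.899], held 4 or more of its UMIs, against 50 SAH nuclei, 1.46% [1.09, 1.92]. The highest value was 5 in Normal and 13 in SAH, and the curves of the 2 libraries crossed between 2 and 3 UMIs, as the plot of nuclei by *Il33* UMIs shows. Without thinning, 3 Normal and 54 SAH nuclei held 8 or more *Il33* UMIs, and the highest value was 8 in Normal and 28 in SAH. The 65 Normal nuclei with 4 or more held 24.5% of the oligodendrocyte *Il33* UMIs of their library, and the 169 such SAH nuclei held 53.6%.

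**Figure D2:**
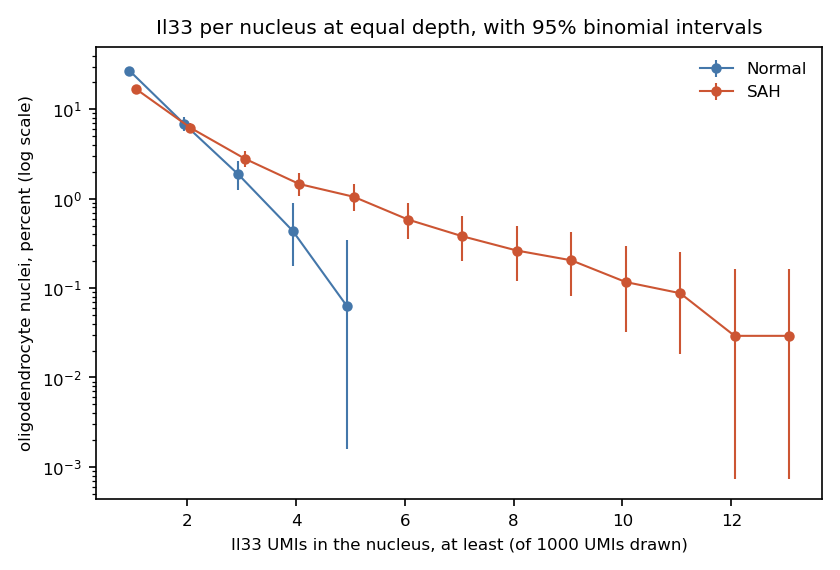
Share of oligodendrocyte nuclei (percent, log scale) that held at least the number of *Il33* UMIs on the horizontal axis, after each nucleus was thinned to 1000 UMIs, for the Normal and the SAH library with 95% binomial intervals. Normal lies above SAH at 1 UMI, with 27.1% against 16.9%, and below it from 3 UMIs on, and reaches 5 UMIs where SAH reaches 13.

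*Serpina3n* (ENSMUSG00000021091, chromosome 12, 104406729 to 104414329, plus strand) had the largest ratio of the 8 genes in oligodendrocytes, except with the filter of 500 to 6000 genes, where *Socs3* was at 4.31 and *Serpina3n* at 4.03 on the log2 scale. It had 14 UMIs in Normal oligodendrocytes, 3.68 CPM [2.01, 6.17], and 493 UMIs in SAH oligodendrocytes, 56.0 CPM [51.1, 61.1]. The SAH level was 15.2 times the Normal level [8.99, 28.1], a log2 ratio of 3.93 [3.17, 4.81], and 30 of 11555 genes had a larger ratio. The share of all *Serpina3n* UMIs that lay in oligodendrocytes was 6.03% in Normal and 46.8% in SAH. At 1000 UMIs per nucleus, 0.312% of Normal and 4.32% of SAH oligodendrocytes held a UMI of it, beside 0.119% and 0.393% of excitatory neurons. Unthinned, these shares were 0.742% and 8.24% in oligodendrocytes. Few oligodendrocytes thus carried it in either library at this depth. In excitatory neurons it was at 1.41 CPM in Normal and 2.41 CPM in SAH, and in inhibitory neurons at 2.78 and 4.40 CPM, levels that in SAH were 4.30% and 7.85% of that in oligodendrocytes. These neuronal shares lay above those of the oligodendrocyte markers, of which the highest was 2.35% in excitatory and 3.23% in inhibitory neurons of SAH. Microglia held 2 and 10 UMIs of *Serpina3n*, and border macrophages and vascular and leptomeningeal nuclei none. The neighbouring paralog *Serpina3m* had 0 UMIs in Normal and 36 in SAH oligodendrocytes. With 3 UMIs put in place of the 0, it was 5.19-fold higher in SAH, a value without the counting error of the 36 UMIs. As reads can be divided between near-identical paralogs, the sum of both genes was also taken, and its log2 ratio was 4.03 [3.27, 4.91].

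*Klk6* (ENSMUSG00000050063, chromosome 7, 43824499 to 43832030, plus strand) was, with *Il33*, the gene most restricted to oligodendrocytes, which held 73.1% of its UMIs in Normal and 74.1% in SAH. With 122 UMIs in Normal it was at 32.0 CPM [26.6, 38.3], and with 209 in SAH at 23.7 CPM [20.6, 27.2]. The log2 ratio came to -0.43 [-0.76, -0.10]. The 500 genes nearest to *Klk6* in length had a median log2 ratio of -0.41 in these nuclei, so that it differed from genes of its length by -0.02. At equal depth 1.87% of Normal and 1.78% of SAH oligodendrocytes held a *Klk6* UMI, beside 0 of 5859 Normal excitatory neurons, which allows a share of up to 0.0512%, and 0.0578% of SAH excitatory neurons.

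The light chain gene *B2m* (ENSMUSG00000060802, chromosome 2, 122147686 to 122153083, plus strand) was lower in SAH in each of the 4 large classes. It overlaps *Patl2* on the opposite strand. In oligodendrocytes it was at 16.5 CPM [12.7, 21.2] in Normal and 9.88 CPM [7.91, 12.2] in SAH, from 63 and 87 UMIs, a log2 ratio of -0.74 [-1.23, -0.25]. In microglia it was at 291 CPM in Normal and 179 CPM in SAH, from 425 and 426 UMIs, and the log2 ratio of -0.71 [-0.90, -0.51] was close to that in oligodendrocytes. The ratios in excitatory and inhibitory neurons were -0.66 [-0.82, -0.51] and -0.83 [-1.18, -0.49]. Short genes were lower in general: the 500 genes nearest in length had a median of -0.53 in oligodendrocytes and -0.42 in microglia, which left differences of -0.21 and -0.29 for *B2m*.

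The heavy chain genes *H2-D1* (ENSMUSG00000073411, chromosome 17, 35262730 to 35267499, plus strand) and *H2-K1* (ENSMUSG00000061232, chromosome 17, 33996017 to 34000347, minus strand) did not differ beyond counting error in oligodendrocytes. *H2-D1* was at 9.46 CPM in Normal and 8.40 CPM in SAH, from 36 and 74 UMIs, a log2 ratio of -0.17 [-0.76, 0.45]. *H2-K1* was at 16.02 and 13.7 CPM, from 61 and 121 UMIs, a log2 ratio of -0.22 [-0.68, 0.25]. The intervals allow an SAH level between 0.589 and 1.36 times that of Normal for *H2-D1* and between 0.625 and 1.19 times for *H2-K1*, and smaller differences were not detectable at this depth. Less the median of genes of like length, the ratios turned positive, to 0.36 for *H2-D1* and 0.34 for *H2-K1*.

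In microglia both heavy chains were lower in SAH. *H2-K1* was at 208 CPM in Normal and 91.9 CPM in SAH, from 304 and 219 UMIs, a log2 ratio of -1.18 [-1.44, -0.93]. *H2-D1* was at 176 CPM in Normal and 88.1 CPM in SAH, from 256 and 210 UMIs, a log2 ratio of -0.99 [-1.26, -0.73]. The intervals of the 2 libraries did not overlap for either gene. Of the 8 genes, 4 had at least 50 UMIs in microglia, and 1 of them, *H2-K1*, was 2-fold or more lower, where 5.25% of 9093 genes were, while none was 2-fold or more higher, where 6.93% of all genes were. Less the medians of like-length genes, *H2-K1* stood at -0.67 and *H2-D1* at -0.51. Of the 500 genes nearest in length to *H2-K1*, 21.4% were 2-fold or more lower in microglia. Because class I genes are near-identical in parts, UMIs were also summed over 8 heavy chain genes, and the sum was at 497 CPM in Normal and 230 CPM in SAH microglia, a log2 ratio of -1.11 [-1.28, -0.95]. The same sum in oligodendrocytes had a log2 ratio of -0.19 [-0.51, 0.13]. The share of *H2-K1* UMIs that lay in microglia was 50.9% in Normal and 35.3% in SAH. Border macrophages, with 22 Normal and 37 SAH nuclei, held 10 and 5 UMIs of *H2-D1*, a log2 ratio of -2.38 [-4.28, -0.70], and 13 and 11 of *H2-K1*, a log2 ratio of -1.62 [-2.92, -0.35]. Vascular and leptomeningeal nuclei, 32 in Normal and 28 in SAH, had *H2-D1* at 223 and 81.7 CPM, from 14 and 4 UMIs, and *H2-K1* at 143 and 102 CPM, from 9 and 5 UMIs, and both intervals of the ratios included 0.

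*Stat3* (ENSMUSG00000004040, chromosome 11, 100885098 to 100939540, minus strand) was higher in SAH in oligodendrocytes and microglia and not in neurons. It overlaps *Stat5a* on the opposite strand. In oligodendrocytes it was at 44.9 CPM [38.4, 52.2] in Normal and 91.0 CPM [84.8, 97.5] in SAH, from 171 and 801 UMIs, a log2 ratio of 1.02 [0.78, 1.26], above that of 92.1% of genes. In microglia it was at 136 CPM in Normal and 246 CPM in SAH, a ratio of 0.85 on the log2 scale [0.62, 1.09], above that of 90.8% of genes. In excitatory neurons it was at 25.4 CPM in both libraries, a log2 ratio of 0.00 [-0.08, 0.09], and in inhibitory neurons the ratio was 0.09 [-0.05, 0.23]. These neuronal levels were 56.5% of the oligodendrocyte level in Normal and 28.0% in SAH for excitatory neurons, far above the shares of the oligodendrocyte markers. At equal depth 4.56% of Normal and 7.54% of SAH oligodendrocytes held a *Stat3* UMI, beside 2.39% and 2.45% of excitatory neurons.

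*Socs3* (ENSMUSG00000053113, chromosome 11, 117966079 to 117970047, minus strand), whose promoter window holds the STAT site printed above, was sparse. Oligodendrocytes held 2 UMIs of it in Normal, 0.525 CPM [0.0636, 1.90], and 46 in SAH, 5.22 CPM [3.82, 6.97]. The log2 ratio was 3.31 with a wide interval [1.38, 6.40]. Microglia held 1 UMI in Normal and 33 in SAH, a log2 ratio of 4.34 [1.76, 9.68]. In excitatory neurons it went the other way, from 1.04 CPM in Normal to 0.685 CPM in SAH, a ratio of -0.60 on the log2 scale [-1.07, -0.14], and in inhibitory neurons 8 and 10 UMIs were found. Oligodendrocytes thus held 2.06% of the *Socs3* UMIs of the Normal library and 20.4% of those of the SAH library, and microglia 1.03% and 14.7%. At equal depth, 0 of 1601 Normal oligodendrocytes held a UMI, which allows a share of up to 0.187%, and 0.468% [0.267, 0.758] of the SAH ones did, beside 0.0853% and 0.0578% of excitatory neurons. The plot of ratios by class sets these values beside each other.

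**Figure D3:**
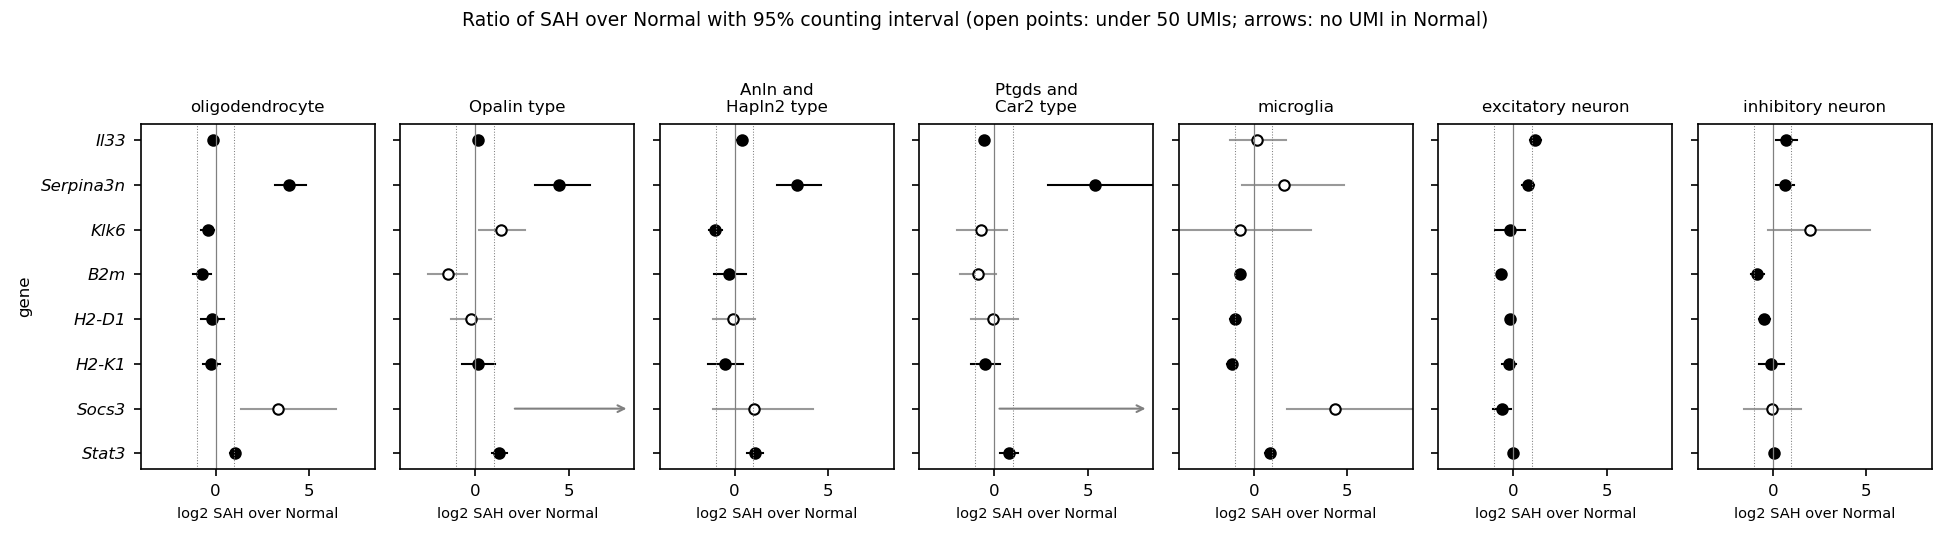
Log2 ratio of SAH over Normal for each of the 8 genes in 4 large cell classes and 3 oligodendrocyte subtypes, with 95% counting intervals, open points for fewer than 50 UMIs over both libraries, arrows for genes without a UMI in Normal, and intervals cut off at the edges of the axis. *Serpina3n* lies above 3 in oligodendrocytes and each subtype, *Stat3* lies between 0.78 and 1.29 there and near 0 in neurons, and *B2m* lies below 0 in every panel.

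In neurons 1 of the genes passed 2-fold. Of 8 genes with enough UMIs in excitatory neurons, 1, *Il33*, was 2-fold or more higher in SAH, where 9.4% of 19083 genes were, and none was 2-fold or more lower, where 4.31% were. None of 6 genes counted in inhibitory neurons passed in either direction, where 5.79% of 15590 genes were higher and 4.53% lower. *Il33* was at 1.79 CPM in Normal and 4.05 CPM in SAH excitatory neurons, a log2 ratio of 1.18 [0.90, 1.46], and at 2.02 and 3.32 CPM in inhibitory neurons, a log2 ratio of 0.72 [0.18, 1.28]. As a percentage of their oligodendrocyte level, the median of the oligodendrocyte markers in these nuclei was also higher in SAH. Their part in the *Il33* values was not tested. The level of *Il33* in excitatory neurons was 0.539% of that in oligodendrocytes in Normal and 1.36% in SAH, and the same percentages for the 12 oligodendrocyte markers had medians of 0.517% (0.318 to 1.89) and 1.05% (0.822 to 2.35). In SAH, 31 excitatory nuclei with 4 or more *Il33* UMIs held 53.2% of its UMIs in that class. These nuclei carried 23.3 oligodendrocyte marker UMIs per 10000, against 1.85 in excitatory nuclei without *Il33*. The 3 such nuclei in Normal, with 13 *Il33* UMIs, carried 2.05 against 1.70. Most *Il33* UMIs of Normal excitatory neurons, 90.4%, lay in 100 nuclei with 1 to 3 of them, which carried 14.8 marker UMIs per 10000. The 183 SAH excitatory nuclei with 1 to 3 *Il33* UMIs carried 12.1. *Klk6* in excitatory neurons was likewise within the range of the markers, at 1.03% and 1.23% of its oligodendrocyte level.

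Oligodendrocytes were divided into 3 subtypes by genes other than the 8, each nucleus being given to the set of subtype genes in which it was highest relative to all oligodendrocytes. The *Opalin* type held 727 Normal and 637 SAH nuclei, the *Anln* and *Hapln2* type 490 and 1344, and the *Ptgds* and *Car2* type, which also used *Grm3* and *Jph4*, 532 and 1600. The genes of this last type were chosen for oligodendrocytes with *Il33*, judged without *Il33* itself, so the division was not chosen independently of that gene. No subtype gene was found in 3 and 25 nuclei. The subtype genes themselves differed between the libraries, with log2 ratios of -1.54 for *Opalin*, -1.44 for *Car2*, -0.48 for *Hapln2*, 0.37 for *Anln* and 0.15 for *Ptgds*. Membership therefore cannot be told apart from these differences, and the sizes of the subtypes are not read as shifts between cell types.

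*Serpina3n* was higher in SAH in each of the subtypes. In the *Opalin* type it had 5 UMIs in Normal and 115 in SAH, a log2 ratio of 4.47 [3.20, 6.12]. In the *Anln* and *Hapln2* type it had 7 and 223, a log2 ratio of 3.30 [2.24, 4.63], and in the *Ptgds* and *Car2* type 1 and 155, a log2 ratio of 5.39 [2.89, 10.7]. The intervals of the 3 ratios overlapped. *Stat3* was also higher in each, with log2 ratios of 1.29 [0.91, 1.68], 1.07 [0.64, 1.53] and 0.78 [0.29, 1.30] in the same order. *Socs3* had 0, 2 and 0 UMIs in the Normal subtypes and 16, 13 and 16 in SAH. The lower limits of its ratio were 3.71-fold in the *Opalin* type and 1.04-fold in the *Ptgds* and *Car2* type. In the *Anln* and *Hapln2* type its log2 ratio was 1.01 [-1.13, 4.20], an interval that included 0.

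*Il33* and *Klk6* did not move alike over the subtypes. *Il33* was at 364 CPM in Normal and 403 CPM in SAH in the *Opalin* type, a log2 ratio of 0.15 [-0.01, 0.30]. It was at 182 and 235 CPM in the *Anln* and *Hapln2* type, a log2 ratio of 0.37 [0.14, 0.60], and at 439 and 302 CPM in the *Ptgds* and *Car2* type, a log2 ratio of -0.54 [-0.70, -0.37]. Its level was thus lower in 1 of the 3 subtypes only. The level over all oligodendrocytes also depends on the share of each subtype, and these shares differed. The *Opalin* type made up 41.5% of Normal and 17.7% of SAH oligodendrocytes, and the *Anln* and *Hapln2* type, with the lowest *Il33*, 28.0% and 37.3%. The part of the shares and of the levels in the overall ratio of *Il33* was not tested. *Klk6* in Normal had 105 of its 122 oligodendrocyte UMIs in the *Anln* and *Hapln2* type, where it was at 99.3 CPM, and in SAH 166 of 209, at 48.6 CPM, a log2 ratio of -1.03 [-1.39, -0.66]. In the *Opalin* type it was at 5.00 CPM in Normal and 12.8 CPM in SAH, from 9 and 24 UMIs, a log2 ratio of 1.36 [0.20, 2.65]. *B2m* was at 31 and 12 UMIs in the *Opalin* type, a log2 ratio of -1.42 [-2.52, -0.42], and its intervals in the other two subtypes included 0.

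With at least 50 UMIs asked for, 4 of the 8 genes could be counted in the *Opalin* type, and 2 were 2-fold or more higher and none lower, where 6.12% of 7763 genes were higher and 7.05% lower. In the *Anln* and *Hapln2* type 6 could be counted, 2 higher and 1, *Klk6*, lower, where 6.6% of 8400 genes were higher and 6.45% lower. In the *Ptgds* and *Car2* type 4 could be counted, 1 higher and none lower, where 8.09% of 8418 genes were higher and 6.77% lower.

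The genes were then followed within oligodendrocytes by the *Il33* UMIs of each nucleus, a division made after the values of *Il33* had been seen. In SAH, *Serpina3n*, *Stat3* and *Socs3* were higher in nuclei with more *Il33*. *Serpina3n* was at 33.7 CPM [29.4, 38.6] in the 2625 SAH nuclei without an *Il33* UMI, at 46.2 CPM with 1, at 94.1 CPM with 2 to 3, at 249 CPM with 4 to 7 and at 389 CPM [299, 497] in the 54 nuclei with 8 or more. *Stat3* over the same steps was at 76.1 CPM [69.4, 83.2], 89.0, 101, 202 and 395 CPM [304, 504]. *Socs3* was at 2.23 CPM [1.22, 3.74] in SAH nuclei without *Il33* and at 61.7 CPM [29.6, 113] with 8 or more, from 14 and 10 UMIs. The level of each of these genes was thus higher at every step, and the intervals at the ends were far apart, as the plot of genes by *Il33* UMIs shows. The lower steps were not all apart. The intervals of *Stat3* and *Socs3* at 0, 1 and 2 to 3 *Il33* UMIs overlapped, as did those of *Serpina3n* at 0 and 1. *Socs3* with 1 and with 2 to 3 rested on 6 UMIs each. *Klk6* was at 19.7 CPM [16.4, 23.5] without *Il33* and at 55.6 CPM [36.9, 80.3] in the 169 nuclei with 4 or more, while *B2m* and *H2-K1* showed no such order.

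**Figure D4:**
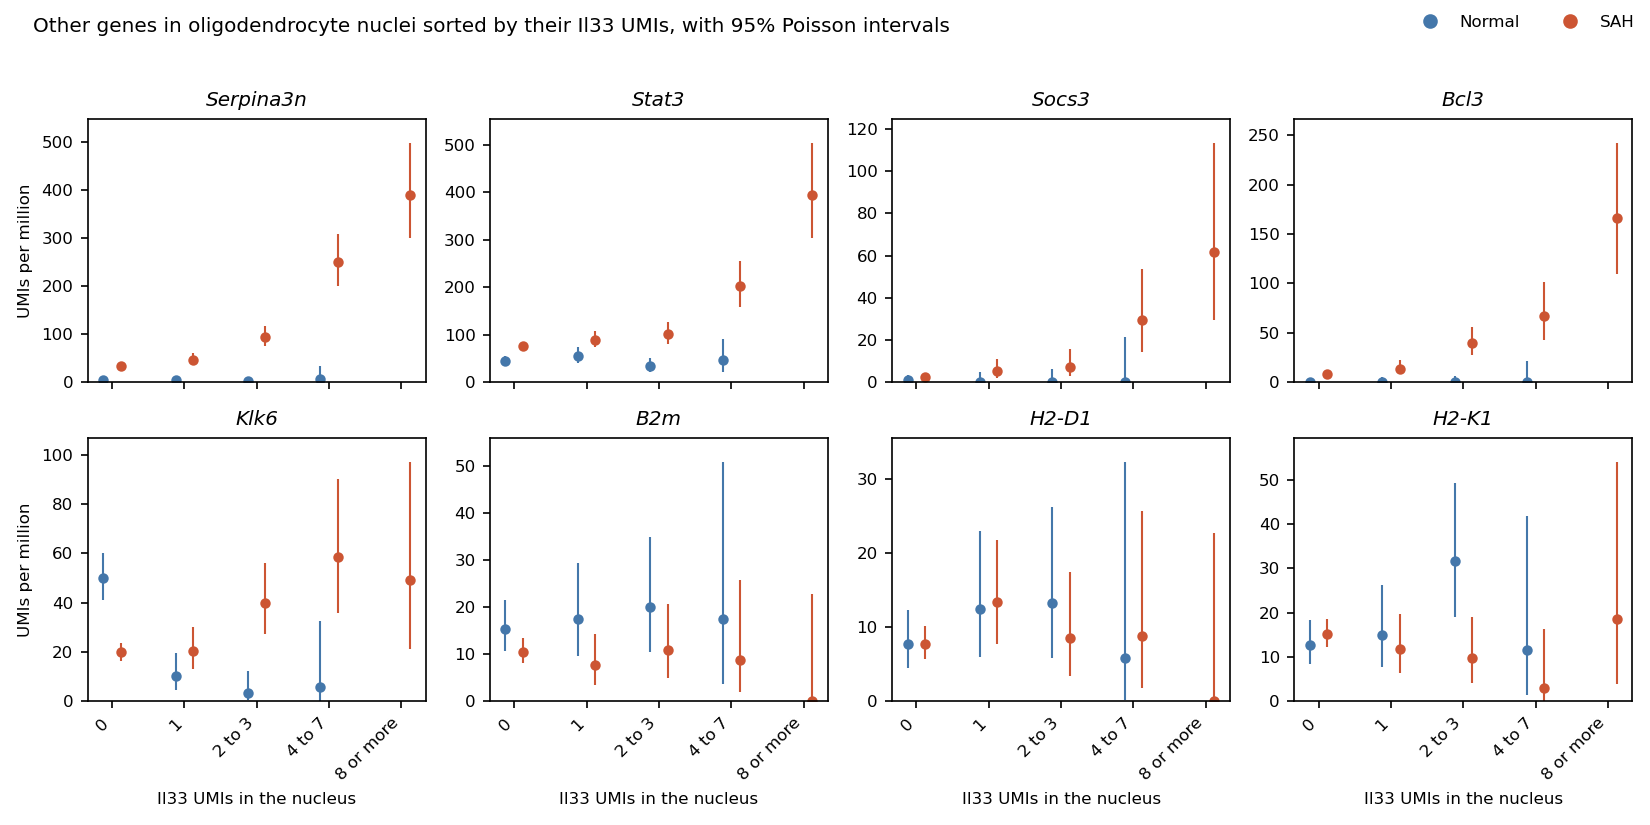
Level in CPM of genes other than *Il33* in oligodendrocyte nuclei grouped by the number of *Il33* UMIs in the nucleus, for the Normal and the SAH library with 95% Poisson intervals, the 3 Normal nuclei with 8 or more left out. In SAH, *Serpina3n* goes from 33.7 to 389 and *Stat3* from 76.1 to 395 CPM with more *Il33*. In Normal *Stat3* shows no such order, and *Serpina3n*, with 14 UMIs, is too sparse to show one.

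The 169 SAH nuclei with 4 or more *Il33* UMIs were 4.69% of SAH oligodendrocytes and held 5.72% of their UMIs. They held 30.02% of the *Serpina3n*, 43.5% of the *Socs3*, 16.6% of the *Stat3* and 13.4% of the *Klk6* UMIs. A *Serpina3n* UMI was found in 42.0% [34.5, 49.8] of these nuclei, against 5.49% [4.65, 6.43] of SAH oligodendrocytes without *Il33*, and a *Stat3* UMI in 44.97% [37.3, 52.8] against 13.7% [12.4, 15.1]. They were deeper, with a median of 2641 UMIs against 2154. With all nuclei at 1000 UMIs, 50 SAH nuclei still held 4 or more *Il33* UMIs, a smaller set than the 169. *Serpina3n* was at 41.9 UMIs per 1000 nuclei without *Il33* and at 340.0 [198, 544] in these 50, from 17 UMIs. *Stat3* was at 74.2 and 340.0 [198, 544], the latter also from 17 UMIs. The 169 nuclei held 2.02 microglia marker UMIs per 10000 against 1.98 in SAH oligodendrocytes without *Il33*. The values were 5.89 against 6.14 for pan-neuronal and 1.57 against 2.40 for astrocyte markers. The microglia markers were at 2.60 in the nuclei with 4 to 7 *Il33* UMIs and at 0.802 in those with 8 or more, and the part of other cells' RNA in these values was not tested.

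The same order was present in each subtype of SAH. *Serpina3n* in nuclei with 4 or more *Il33* UMIs was at 215 CPM in the *Opalin* type, 320 CPM in the *Anln* and *Hapln2* type and 360 CPM in the *Ptgds* and *Car2* type, and in nuclei without *Il33* at 37.8, 43.5 and 20.7 CPM. *Stat3* was at 301, 252 and 232 CPM with 4 or more and at 86.4, 86.6 and 58.8 CPM without. In Normal no such order was seen for *Stat3*, and *Serpina3n* held too few UMIs to show one. *Stat3* was at 44.6 CPM [36.2, 54.2] in Normal nuclei without *Il33* and at 43.9 CPM [18.9, 86.5] in the 65 nuclei with 4 or more. *Serpina3n* was at 4.05 and 5.49 CPM in the same nuclei, the latter from 1 UMI with an interval of [0.139, 30.6]. *Klk6* had the opposite order to that in SAH, with 49.95 CPM [41.1, 60.2] in Normal nuclei without *Il33* and 5.49 CPM [0.139, 30.6] with 4 or more.

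Seen from *Serpina3n*, the 107 SAH nuclei with 2 or more of its UMIs had *Il33* at 1248 CPM [1126, 1381], *Klk6* at 185 CPM [140, 240], *Stat3* at 251 CPM [198, 314] and *Socs3* at 36.3 CPM [18.1, 65.0]. In the 3309 SAH nuclei without *Serpina3n* these genes were at 232, 13.1, 78.3 and 2.77 CPM. The intervals of the nuclei with and without it did not overlap for any of the 4 genes, but they take UMIs as independent. The 107 nuclei were also deeper, with a median of 2667 UMIs against 2176, and no values at equal depth are given. As the nuclei were divided by a gene of the same library, these values are a description only. *B2m* was at 9.91 CPM [2.04, 29.0] and 9.19 CPM [7.20, 11.6] in the same nuclei, within counting error of each other.

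The pathways around the 8 genes were followed through 6 gene lists. In the interleukin 6 and STAT3 list, 17 of 28 genes had at least 50 UMIs in oligodendrocytes, 3 of which were 2-fold or more higher and none lower, and the median log2 ratio was 0.27. *Bcl3*, an atypical IκB protein and a known target of STAT3, had 0 UMIs in Normal and 148 in SAH oligodendrocytes. In microglia it had 0 and 51. With 3 UMIs put in place of the 0, it was 21.3-fold higher in SAH oligodendrocytes and 10.4-fold higher in SAH microglia. These values leave out the counting error of the SAH UMIs. *Bcl3* overlaps *Gm16175* and *Gm16174* on the opposite strand. *Il6ra*, the receptor of interleukin 6, had 8 and 65 UMIs in oligodendrocytes, a log2 ratio of 1.81 [0.75, 3.08], and *Stat3* was the third. Below 2-fold, *Ptpn2*, a phosphatase of the pathway, was at 0.92 [0.67, 1.18], *Jak2* at 0.46 [0.34, 0.58] and *Tyk2* at -0.75 [-1.08, -0.42]. In microglia 16 genes of this list were counted, 2 of them higher, *Bcl3* and the receptor *Lifr* at 1.44 [1.22, 1.65], and none lower, with a median of -0.11.

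In the MHC class I presentation list, 10 of 24 genes had enough UMIs in oligodendrocytes, none of which was higher and 1 lower, with a median of -0.48. The lower gene was *Calr*, a chaperone of the endoplasmic reticulum, at -1.06 [-1.27, -0.84], and the chaperones *Canx* and *Pdia3* were at -0.62 and -0.77. *Nlrc5*, the transactivator of class I genes, had 1 and 40 UMIs, a log2 ratio of 4.11 [1.55, 9.45], under the minimum. In microglia 17 of the 24 genes had enough UMIs, none higher and 4 lower, with a median of -0.62, where 6.93% of all genes were higher and 5.25% lower with a median of 0.02. The 4 were *H2-T23*, a non-classical heavy chain, at -1.54 [-2.13, -0.97], the peptide transporter *Tap1* at -1.32 [-1.99, -0.67], *H2-K1*, and the immunoproteasome subunit *Psmb9* at -1.12 [-1.90, -0.36]. *Nlrc5* in microglia was at 0.02 [-0.64, 0.70]. Of the 500 genes nearest in length to *B2m*, *H2-D1* and *H2-K1*, 20.4%, 21.8% and 21.4% were 2-fold or more lower in microglia. Their median log2 ratios were -0.42, -0.49 and -0.51, far lower than over all genes. The list as a whole was not set against genes of like length.

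The interferon response list had 8 of 18 genes with enough UMIs in oligodendrocytes, none higher and 1 lower, *Ifi27* at -1.70 [-2.04, -1.37], with a median of -0.20. In microglia 10 were counted, none higher and 2 lower, *Ifi27* at -1.85 and *Bst2* at -1.22, with a median of -0.38. In the interleukin 33 list none of 7 genes counted in oligodendrocytes and none of 6 in microglia passed 2-fold, with medians of 0.09 and -0.15. *Il1rl1*, which encodes the receptor ST2, had no UMI in oligodendrocytes of either library, and 17 and 28 UMIs in microglia, at 11.7 and 11.8 CPM.

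Of the serpins and kallikreins, 6 of 18 genes were counted in oligodendrocytes, with *Serpina3n* higher and 2 lower. The lower ones were *Serpinb1a* at -2.28 [-2.51, -2.05] and *Serpine2*, which encodes the thrombin inhibitor protease nexin 1, at -1.08 [-1.64, -0.52], and the median was -0.12. In microglia 3 were counted, of which *Serpine2* was lower. Of 12 other genes linked to reactive oligodendrocytes, 7 were counted in oligodendrocytes, with complement *C4b* higher at 1.64 [1.15, 2.16] and *Apoe* and *Cd9* lower at -1.21 and -1.18, and the median was -0.52. In microglia 6 were counted, none higher and 1 lower, *Cd9* at -1.19. Over all genes, 8.07% were 2-fold or more higher and 6.1% lower in oligodendrocytes, and 6.93% and 5.25% in microglia. The lists were small and were not tested, and none of the counts is read as particular to its list.

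Across the 8 cell classes of the 2 libraries, 16 values in all, the genes whose log2(CPM + 1) was most like that of *Il33* were *Olfml1* (Pearson's r = 0.99), *Shroom1* (0.93) and *Fgfr2* (0.92), and those most like *Klk6* were *Tmem125*, *Gm48508* and *Cyp2j12* (each 0.99). *Stat3* was most like *Nfe2l2*, *Tor1aip1* and *Apobec3* (each 0.92). *H2-K1* was most like *Nsd1* and *Trim26* (each 0.94) and *Surf4* (0.93), and *B2m* most like *Prkcd*, *Nup153* (each 0.95) and *Itgb5* (0.94). *Serpina3n* was most like *Gm42695* (0.94), *Gm28529* (0.92) and *Ncapg* (0.91), and *Socs3*, with the lowest values, most like *Layn* (0.82), *Hdac10* (0.81) and *Abhd11* (0.80). These values share libraries and depth, and 4 of the classes held under 50 nuclei in each library, so that the order is a description only.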

How the data were processed

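The authors prepared 3′ libraries of nuclei (10x Genomics, v3.1) and used Cell Ranger on mm10 to count UMIs, intronic reads included, for each gene in each nucleus. The deposited tables hold raw counts without normalization. The file headers give Cell Ranger 6.1.2 and the submitters' processing notes 5.0.0. How reads of overlapping or near-identical genes were assigned is not given in the sources used here. The study's methods removed doublets with DoubletFinder in its own analysis, and its list of removed nuclei was not used here.

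Nuclei outside 300 to 7000 genes, or with 10% or more mitochondrial, 3% or more haemoglobin or over 100000 UMIs, were removed (71 Normal, 29 SAH), as in the study's methods. A nucleus entered a class when its marker UMIs passed a threshold (oligodendrocytes 60, microglia, border macrophages and vascular cells 50, precursors and astrocytes 100, neurons 25 per 10000 UMIs) with at least 3 distinct markers of the class. Nuclei that passed the gates of different classes (132 and 198) were left out in place of a doublet caller, and 1024 and 1603 passed none. A further 215 and 308 neurons were neither excitatory nor inhibitory. No annotation of nuclei was used, so classes may differ from those of the study.

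UMIs were summed per class. With 1 library per condition and nuclei that are not replicates, differences were not tested. For shares, each nucleus was thinned to 1000 UMIs. Positions and lengths were those of GENCODE for GRCm38, and promoters those of RefSeq. The genes, lists and markers were chosen with earlier results of these data known, and the thresholds after the marker sums were seen. Genes named beside the 8 are the subtype and marker genes, the 3 largest ratios per list and direction among genes with at least 50 UMIs past 2-fold in oligodendrocytes, and the 3 genes most like each of the 8 among those with at least 200 UMIs. Of the genes this rule names, some are not reported here. The others (*Serpina3m*, *Nlrc5*, *Il1rl1*, *Ptpn2*, *Jak2*, *Tyk2*, *Canx*, *Pdia3*, *Psmb9*, the genes named for microglia, and those of the nuclei rich in *Il33*) were named after their values were seen. Intervals were checked on simulated counts of independent UMIs, a setting without UMIs gathered in few nuclei. Software was scipy 1.17.1, pandas 2.3.3 and numpy 2.4.6 under Python 3.11.15.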

Additional observations from a re-analysis of the deposited data

Results flagged for a closer look

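*Il33* had ratios of opposite sign in different cell types, each beyond its counting interval, which takes UMIs as independent. The log2 ratio of SAH over Normal was -0.16 in oligodendrocytes, 1.18 in excitatory neurons and 0.72 in inhibitory neurons. Among the oligodendrocyte subtypes it was 0.37 in the *Anln* and *Hapln2* type and -0.54 in the *Ptgds* and *Car2* type. *Klk6* was at 1.36 in the *Opalin* type and -1.03 in the *Anln* and *Hapln2* type. *Socs3* was at 3.31 in oligodendrocytes and 4.34 in microglia but at -0.60 in excitatory neurons. With 1 library per condition, none of these differences between groups was tested. The oligodendrocyte markers in the neurons with *Il33* and the ratios of the subtype genes are given with the results, and their part in these values was not tested.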

How the results depend on the processing

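The results in oligodendrocytes were recomputed under 11 settings fixed at the start and 2 added after the data were seen. The count of 2 genes that were 2-fold or more higher became 1 under 4 of them: the mean over nuclei of each nucleus's CPM, thinning to 1000 UMIs, ratios centred on the 500 genes closest in length, and leaving out the nuclei with 4 or more *Il33* UMIs. It became 3, with *Socs3* then past the minimum, under another 3: the oligodendrocyte threshold at 0.5 times, nuclei that pass another gate kept, and a minimum of 1 UMI in each library. *Stat3*, which ranged from 0.84 to 1.07, was the gene that fell under 2-fold in the first 4, and *Serpina3n* ranged from 3.49 to 4.33. The median over the genes ranged from -0.38 to 0.43, the last with at least 200 UMIs asked for. *Socs3* ranged from 2.03 to 4.31, *Il33* from -0.25 to -0.03, *Klk6* from -0.61 to -0.02, *B2m* from -0.86 to -0.21, *H2-D1* from -0.63 to 0.36 and *H2-K1* from -0.39 to 0.34. With ratios set against genes of like length, 9.03% of all genes were 2-fold or more higher and 2.41% lower, against 8.07% and 6.1%. Of 32 shares recomputed without thinning or at 1500 UMIs, 25 moved beyond their interval, as shares depend on depth. No paired analysis was possible because each condition had 1 library. No value covers the variation between mice, and *Socs3*, *H2-D1* and the small classes rest on few UMIs.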

Other observations

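The SAH oligodendrocytes with 4 or more *Il33* UMIs also differed in genes outside the lists. Of the 3157 genes that reached 30 UMIs in these 169 nuclei, 175 were 2-fold or more higher than in SAH oligodendrocytes without *Il33*, and 37 were 2-fold or more lower. The minimum was asked of these 169 nuclei only, so genes low in them were more often left out. The counts of higher and lower genes therefore cannot be set against each other. *Rgs20*, a regulator of G protein signalling, was at 365 CPM against 15.4 CPM, a log2 ratio of 4.56 [4.20, 4.93], and at 13.1 CPM in Normal oligodendrocytes. *Rhoj*, a small GTPase, was at 2913 against 410.0 CPM and at 46.0 CPM in Normal. *Slc39a14*, a transporter of zinc, iron and manganese, was at 423 against 55.1 CPM and at 11.03 CPM in Normal. *Pros1*, which encodes protein S, a ligand of the TAM receptors, was at 252 against 32.2 CPM and at 9.19 CPM in Normal. *Bcl3* was at 99.2 CPM [73.6, 131] against 7.80 CPM [5.77, 10.3]. These genes were named after their values were seen, and since the nuclei were divided by a gene of the same libraries, the values are a description only.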
